A study of Mus musculus with 4 samples.

Results

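The fibrillar collagen chains of types I, III and V are described here from 6 genes, Col1a1, Col1a2, Col3a1, Col5a1, Col5a2 and Col5a3. Every probe set that the annotation of the array assigns to one of these genes was taken, whatever its values, which gave 14 of 45037 probe sets. None of the 14 is shared with another gene symbol. The 6 genes themselves were chosen with earlier results of these data known, so counts and medians over them are no independent finding. Expression was measured with Affymetrix mouse whole-genome arrays in Sca-1 cells, a heart cell fraction that is enriched for resident progenitor cells with antibodies and magnetic beads. Cyc cells came from hearts of double-transgenic FVB mice aged 6 weeks that overexpress CyclinT1 and Gαq and develop heart failure. Wt cells came from healthy wildtype FVB littermates of the same age. Both transgenes stand under the αMHC promoter, which is best known from cardiomyocytes. Mice were of either sex, neither group was treated, and RNA was extracted from freshly isolated cells. Each array held 1 pool of cells from several hearts, with 2 pools per genotype.

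Fibrillar collagens are the rope-like proteins that give connective tissue its tensile strength. Type I collagen is the main collagen of the heart and is mostly built from products of Col1a1 and Col1a2, and type III collagen, a trimer of the Col3a1 product, lies in the same fibrils. Type V collagen is a minor component that helps new fibrils to start and limits their thickness. In the heart these genes are mainly known as products of fibroblasts, and their mRNAs are commonly higher in fibrosis.

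Of the 12 tested probe sets, 4 were expressed at least 2-fold higher in Cyc than in Wt cells and none was lower. They read Col1a1, Col1a2 and Col5a2, the last at both of its probe sets. Here a probe set counts as higher or lower with a fold change of at least 2 and an unadjusted p under 0.05 (limma on log2 of intensity plus 16, two-sided). Over all 20680 tested probe sets 0.735% were higher and 0.116% lower by the same rule. In this fit 412 probe sets had an unadjusted p under 0.05 but none an adjusted p under 0.05 (limma, smallest 1.0), so the calls fail correction for multiple tests. The median log2 fold change of the 12 probe sets was 0.78, against -0.02 over all tested probe sets. Without the Wt pool of replicate 2 none of the 12 passed (0.609% of all tested), where the 4 kept log2 fold changes from 0.86 to 1.21, and without the Cyc pool of replicate 1 7 passed (2.81% of all tested). By the methods' t-test, which the study names for other assays than the arrays, the fold changes were the same and none of the 12 passed. Of all 20680 tested probe sets 47 were higher and 7 lower by that test, so few passed at all.

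The deposited intensities are on a linear scale in arbitrary units and ran from -517 to 19512 on the 4 arrays. A value under 50 is treated as near background, and probe sets with 50 or more on at least 2 arrays were tested. The median intensity of the tested probe sets was 197.6 and 280.5 in the Cyc pools and 219.4 and 260.7 in the Wt pools, in the order of replicates 1 and 2 used throughout. Control RNAs added before labelling had a median of 258.8 in the Cyc and 231.9 in the Wt pool of replicate 1, but of -0.9 and 0.3 in the Cyc and Wt pools of replicate 2. The sample labels do not say that a replicate number marks an experiment, or which pools were isolated together. Because these controls separate the numbers, the replicate number was read as the experiment. On this assumption Cyc minus Wt differences are also given within experiments 1 and 2, each with 1 pool per genotype and no replicate. Gnaq, the gene of Gαq, was read at 723.6 and 492.3 in the Cyc pools and at 22.7 and 4.1 in the Wt pools at 1 of the 7 probe sets with its symbol alone, and the other 6 did not pass, with log2 fold changes from -0.47 to -0.18. Tests rest on the spread among these 4 pools, which limma moderates by the spread of all tested probe sets, and 4 arrays limit the precision.

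Col1a1 encodes the chain that makes up most of the type I trimer, and its probe sets did not give the same call. Probe set 1455494_at gave 456.1 and 905.5 in the Cyc pools, against 321.3 and 242.5 in the Wt pools. Every Cyc value exceeded every Wt value, and Col1a1 was here expressed at higher level in Cyc cells, with a mean of 681 ± 318 against 282 ± 55.7 in Wt cells (SD, n = 2 pools each). This is a log2 fold change of 1.16 (95% confidence interval from 0.10 to 2.22, limma, unadjusted p = 0.0379, adjusted p = 1.0). Its difference was 0.49 in experiment 1 and 1.83 in experiment 2. This was the call that depended most on the settings, as it was also lost without the Cyc pool of replicate 2, without the Wt pool of replicate 1 and without a filter on dim probe sets.

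Probe set 1423669_at of Col1a1 had 380.5 and 771.7 in the Cyc pools, against 470.3 and 292.0 in the Wt pools. The groups overlap, since the Cyc pool of replicate 1 lay between the Wt pools. Its log2 fold change was 0.53, with an interval from -0.64 to 1.70, and the experiments pointed in opposite directions, with -0.29 in the first and 1.35 in the second. Between both probe sets of Col1a1 the differences were apart by 0.78 in experiment 1 and by 0.48 in experiment 2 on the log2 scale, with the smaller at 1423669_at each time.

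Col1a2 encodes the other chain of type I collagen and has 3 probe sets of very different brightness. At 1423110_at it was read at 1890.7 and 2782.5 in the Cyc pools and at 1133.2 and 711.9 in the Wt pools. All Cyc values lay above all Wt values, and the level was higher in Cyc cells by 1.34 on the log2 scale (interval from 0.40 to 2.27, unadjusted p = 0.0151, limma adjusted p = 1.0), with 0.73 in experiment 1 and 1.94 in experiment 2. Probe set 1450857_a_at, whose suffix marks probes that match several transcripts of the gene, was far brighter, at 8000 and 8923.5 in the Cyc pools and at 6808.1 and 3992.1 in the Wt pools. Here too the groups did not overlap, but the log2 fold change of 0.69 (interval from -0.19 to 1.58) did not pass the thresholds, and the Wt pools differed from each other by more than the means of the genotypes did on the log2 scale (0.77). The third, 1446326_at, lay near background at 17.4 and 105.4 in the Cyc pools and at 33.0 and 56.9 in the Wt pools, so that its fold change of 0.09 (interval from -1.67 to 1.86) fixes no direction.

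Col3a1, the single chain of type III collagen, gave the brightest signal of the 6 genes. Probe set 1427883_a_at was read at 11540.4 and 10795.5 in the Cyc pools and at 10685.4 and 6355.8 in the Wt pools. The Cyc pools and the Wt pool of replicate 1 were close to each other and the Wt pool of replicate 2 stood below them. Its log2 fold change was 0.44 (interval from -0.43 to 1.30), with 0.11 in experiment 1 and 0.76 in experiment 2. At 1427884_at, for which the annotation lists the same source sequence, the values were 1422.8 and 1617.0 in the Cyc pools and 987.9 and 688.7 in the Wt pools. There the log2 fold change was 0.87 (interval from 0.12 to 1.61, unadjusted p = 0.0305), which passed the p but stayed under 2-fold, with 0.52 and 1.21 in the experiments. Neither probe set of Col3a1 therefore counts as changed.

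Col5a1 and Col5a2 encode the chains of the common form of type V collagen. Col5a2 was higher in Cyc cells at both of its probe sets. The brighter one, 1422437_at, had 2342.9 and 2703.3 in the Cyc pools, against 1379.8 and 835.0 in the Wt pools, a log2 fold change of 1.22 (interval from 0.36 to 2.08, unadjusted p = 0.0156, limma adjusted p = 1.0). The dimmer one, 1450625_at, had 697.2 and 1027.6 in the Cyc pools, against 357.1 and 279.2 in the Wt pools, and with 1.38 the largest log2 fold change of the 12 probe sets (interval from 0.58 to 2.18, unadjusted p = 0.00735, limma adjusted p = 1.0). The groups did not overlap at either, and the experiments gave 0.76 and 1.68 at the first and 0.93 and 1.82 at the second. The distance between both probe sets of Col5a2 was no more than 0.18 in either experiment. In the mouse annotation Col3a1 and Col5a2 lie next to each other with 0 annotated genes between them.

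Col5a1 did not pass the thresholds at any of its 3 probe sets. At 1416740_at it had 945.6 and 1239.2 in the Cyc pools and 751.0 and 457.2 in the Wt pools, with a log2 fold change of 0.87 (interval from -0.03 to 1.76, unadjusted p = 0.0549). At 1434479_at it had 484.5 and 507.5 in the Cyc pools and 472.8 and 252.9 in the Wt pools, with a log2 fold change of 0.50 (interval from -0.44 to 1.44). The groups did not overlap at either of them, at 1434479_at by a small margin. The third, 1416741_at, lay under 50 in every pool, with 21.4 and 42.1 in the Cyc pools, against 38.3 and 19.0 in the Wt pools. It was therefore left untested, although the annotation lists the same source sequence for it as for 1416740_at.

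Col5a3, whose product replaces another chain in a rarer form of type V collagen, stood apart from the other genes. Its probe set 1419703_at had 177.7 and 153.2 in the Cyc pools, between the Wt values of 250.9 and 115.2. With -0.05 there was next to no mean difference on the log2 scale, but the interval ran from -1.11 to 1.02 and includes a 2-fold change in either direction. The difference was -0.46 in experiment 1 and 0.37 in experiment 2. Its other probe set, 1425984_at, was at -11.0 and 0.6 in the Cyc pools and at -5.5 and 1.1 in the Wt pools and was not tested. Whether Col5a3 differs from the other chains in its response was not tested.

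**Figure D1:**
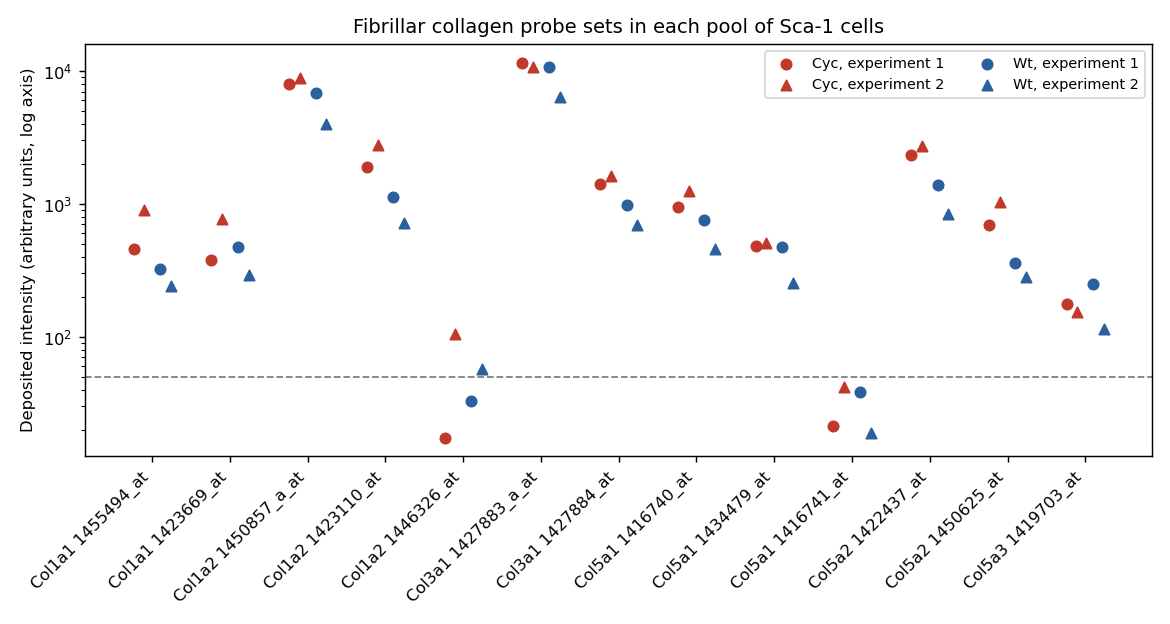
Deposited intensity (log axis, arbitrary units) of 13 of the 14 probe sets in each pool, drawn in red for Cyc and in blue for Wt, with circles for experiment 1, triangles for experiment 2 and a dashed line at 50. Both red points lie above both blue points at 9 probe sets, among them all those of Col3a1 and Col5a2, and the Col5a3 probe set with values below 0 is not drawn.

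The 250 bases before the RefSeq start site are shown for 3 of the genes (RefSeq sequences, build GRCm38.p6), as Col1a2 and Col3a1 had Cyc pools above Wt pools at their bright probe sets and Col5a3 did not. The table of promoters holds 4 of the 6 genes, without Col1a1 and Col5a2. The stretches lie at chr6:4505368-4505617 on the plus strand, at chr1:45311288-45311537 on the plus strand and at chr9:20815068-20815317 on the minus strand, and read 5′ to 3′. Capitals mark matches on either strand to the CCAAT box, the GC box or the TATA box.
Col1a2: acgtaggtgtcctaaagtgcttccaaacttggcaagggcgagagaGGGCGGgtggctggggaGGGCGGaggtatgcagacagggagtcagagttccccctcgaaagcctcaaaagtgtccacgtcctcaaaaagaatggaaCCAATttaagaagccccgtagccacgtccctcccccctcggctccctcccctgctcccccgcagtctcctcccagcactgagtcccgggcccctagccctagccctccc
Col3a1: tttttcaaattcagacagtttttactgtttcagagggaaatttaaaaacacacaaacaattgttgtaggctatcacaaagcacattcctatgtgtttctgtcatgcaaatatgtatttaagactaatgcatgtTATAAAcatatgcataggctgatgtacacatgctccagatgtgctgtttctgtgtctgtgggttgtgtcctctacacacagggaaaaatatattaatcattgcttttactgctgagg
Col5a3: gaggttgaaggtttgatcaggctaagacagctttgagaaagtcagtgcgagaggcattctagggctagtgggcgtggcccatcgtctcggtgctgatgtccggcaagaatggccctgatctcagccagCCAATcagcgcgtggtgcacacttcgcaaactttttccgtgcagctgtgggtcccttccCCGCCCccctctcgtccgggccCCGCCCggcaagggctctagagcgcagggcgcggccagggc
The letters CCAAT, the core bound by the factor NF-Y, occur once each in Col1a2 and Col5a3 and not in Col3a1, and is present in 33.8% of all 32851 stretches of this length. The GC box, searched as GGGCGG, occurs 2 times each in Col1a2, Col5a3 and Col5a1, whose stretch is not printed, and not in Col3a1 (32.7% of all stretches). The TATA box, searched as TATAAA, occurs 1 time in Col3a1 and in none of the others (12.4% of all stretches). These are matches of letters, and no occupancy was measured in these cells.

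The direction was the same at 9 probe sets in both experiments, but its size was not. In experiment 1 the Cyc pool was above the Wt pool at 9 of 12 probe sets, where 38.2% of all tested probe sets were, and at none by 2-fold (0.885% of all tested). In experiment 2 it was above at 12 of 12 (58.8% of all tested) and by at least 2-fold at 8 (3.26% of all tested). The difference was larger in experiment 2 at each of the 12, which was true of 68.4% of all tested probe sets. The medians of the 12 were 0.28 in experiment 1 and 1.28 in experiment 2, against -0.10 and 0.06 over all tested probe sets. The groups did not overlap at 9 of the 12, with Cyc above Wt, where 15.1% of all tested probe sets had this order.

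**Figure D2:**
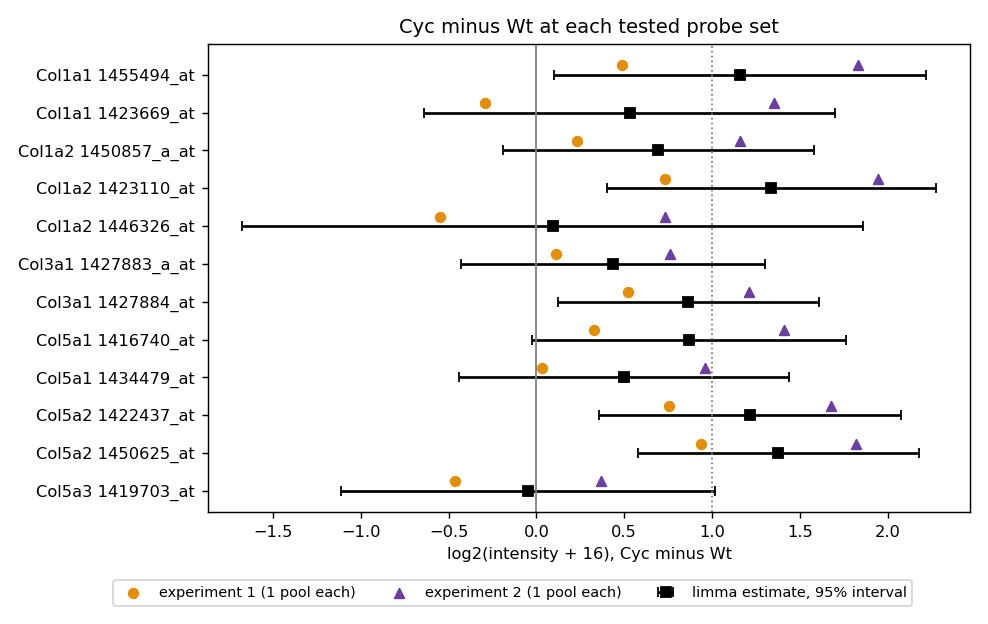
Cyc minus Wt difference of log2(intensity + 16) at the 12 tested probe sets, with the limma estimate and its 95% confidence interval as black squares and bars, experiment 1 as orange circles and experiment 2 as purple triangles. The triangle lies right of the circle in every line, and the intervals of 5 probe sets stay right of 0, among them both of Col5a2.

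Pools of the same genotype also differed from each other, the Wt pools more than the Cyc pools at most probe sets. In the Wt pool of replicate 2 the collagens were below those in the Wt pool of replicate 1 at 11 of 12 probe sets (30.5% of all tested), with a median difference of -0.68, against 0.19 over all tested probe sets. In the Cyc pool of replicate 2 they were above those in the Cyc pool of replicate 1 at 10 of 12 (77.2% of all tested), with a median of 0.29, against 0.38 over all tested. Col1a1 had the widest gaps between Cyc pools among the probe sets read well above background, 0.96 and 0.99. The near-background probe set of Col1a2 was the exception among Wt pools, with 0.57. With the experiment as a block in the fit, the same 4 probe sets were higher and none was lower (0.924% and 0.227% of all tested), with adjusted p-values from 0.648 to 0.982 over the 12 (limma).

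**Figure D3:**
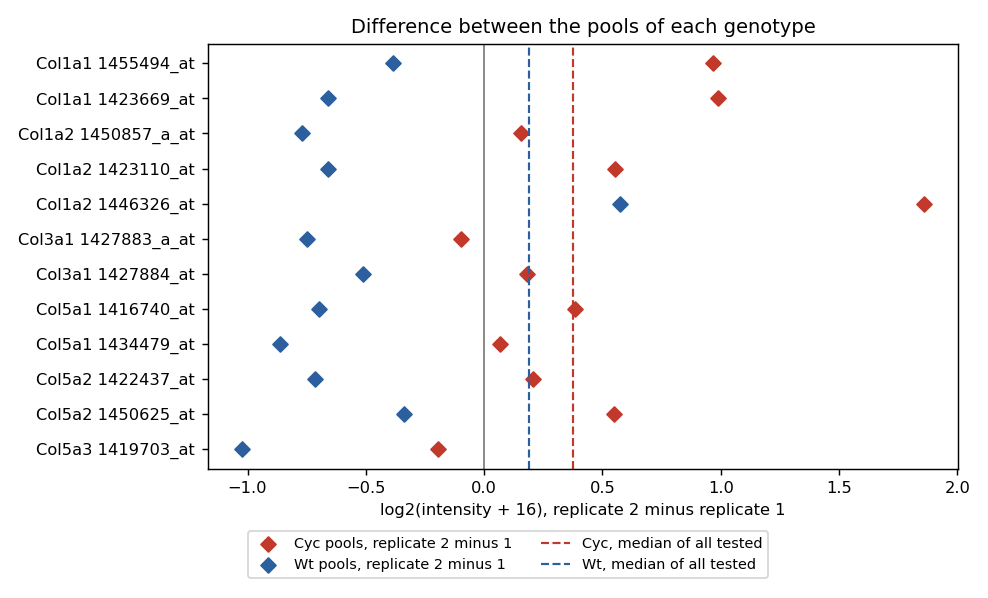
Difference of log2(intensity + 16) between replicate 2 and replicate 1 at each tested probe set, for the Cyc pools (red) and the Wt pools (blue), with dashed lines at the medians of all tested probe sets. Blue points lie left of 0 at 11 of 12 probe sets although the blue dashed line is right of 0, at 0.19.

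For Col1a2 and Col3a1 the brightest probe set gave a smaller fold change than the next one of the same gene, and so did that of Col5a2 by 0.16 on the log2 scale, while for Col1a1 and Col5a1 it gave the larger one. For Col1a2 the difference at 1423110_at exceeded that at the brighter 1450857_a_at by 0.50 in experiment 1 and by 0.79 in experiment 2, and for Col3a1 that at 1427884_at exceeded that at the brighter 1427883_a_at by 0.41 and 0.45. The deposited table has no flag for saturation, so brightness is given relative to the array. The bright Col3a1 probe set reached 61.3% and 58.9% of the highest intensity in the Cyc pools and 54.8% and 40% in the Wt pools, and ranked from 58th to 97th of 45037 in 3 pools and 290th in the Wt pool of replicate 2. The bright Col1a2 probe set reached 42.5% and 48.7% in the Cyc pools and 34.9% and 25.1% in the Wt pools. The other 10 tested probe sets stayed at or below 15.2% of the highest intensity.

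At a mean intensity of 8000 or more, fold changes were small for all genes. Among the 207 tested probe sets with a mean intensity of 8000 or more, the highest log2 fold change was 0.58 and none reached 2-fold, and the median size of the change was 0.06, against 0.16 among 2480 probe sets between 1000 and 3000. Within these classes of similar brightness the Col3a1 value of 0.44 was the 2nd highest of 207. Of the 687 probe sets between 3000 and 8000, 4 changed by 2-fold or more, and the highest log2 fold change was 2.65. The Col1a2 value of 0.69 at its bright probe set was the 10th highest of these 687. Its 1.34 at 1423110_at was the 8th highest of 2480. Col5a2 was 11th of 2480 at 1422437_at and 26th of 5749 between 300 and 1000 at 1450625_at, and Col1a1 at 1455494_at was 38th of the same 5749. In that class Col5a1 was 75th at 1416740_at and 258th at 1434479_at, and Col1a1 at 1423669_at was 221st. Col3a1 at 1427884_at was 27th of 2480. Far lower stood Col1a2 at 1446326_at, 1758th of 4924 under 100, and Col5a3 at 1419703_at, 3531st of 6633 between 100 and 300. Whether saturation lowers the fold changes at the bright probe sets was not tested.

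**Figure D4:**
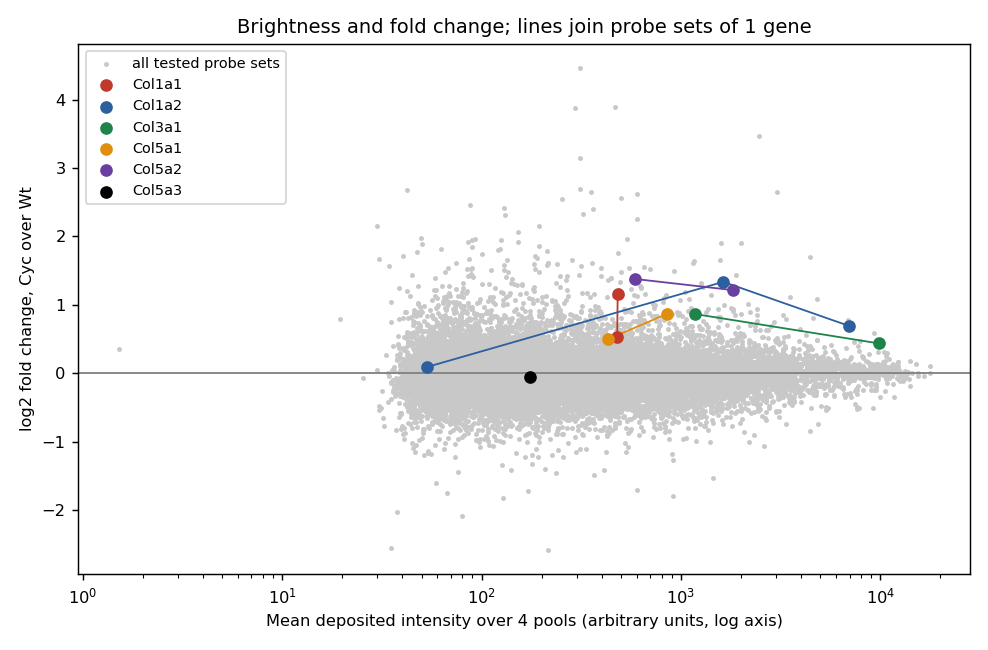
Log2 fold change (Cyc over Wt) against the mean deposited intensity over the 4 pools (log axis, arbitrary units) for all 20680 tested probe sets in grey and those of the 6 collagen genes in colour, with lines between probe sets of 1 gene. The lines of Col1a2 (from 1629.6 to 6930.9) and Col3a1 fall towards the bright end, where the grey cloud narrows.

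Genes that act on the same fibrils were taken from 7 lists with 94 genes, of which 88 were measured and 71 tested, each at its brightest probe set. Of these 71, 7 were higher and none was lower in Cyc cells, where 0.735% and 0.116% of all tested probe sets were. The median log2 fold change was 0.33 (0.11 in experiment 1 and 0.59 in experiment 2), against -0.02 over all tested probe sets. The lists were chosen with earlier results of these data known, so these counts are no independent finding. Without the Cyc pool of replicate 1, where 2.81% of all tested probe sets were higher, 16 of the partner genes were. Of 19 tested proteins that bind to fibrils 3 were higher and 16 did not pass (median 0.59). With the experiment as a block Col12a1, a collagen on the surface of fibrils, also passed, with a log2 fold change of 1.2. Postn, the gene of periostin, a matricellular protein that promotes fibril assembly, had 2404.9 and 3992.2 in the Cyc pools and 881.1 and 761.6 in the Wt pools, a log2 fold change of 1.90. Comp, which binds collagens in cartilage and tendon, was higher by 2.55, with 387.9 and 495.3 in the Cyc pools and 58.0 and 65.4 in the Wt pools. Fmod, a small proteoglycan of fibrils, was higher by 2.65, with its highest value in the Cyc pool of replicate 2 (184.4 and 1103.5 in the Cyc pools and 69.5 and 50.3 in the Wt pools). The 3 brightest of this list, Sparc, Dcn and Bgn, had log2 fold changes of 0.14, -0.01 and 0.77 and did not pass.

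Of 17 tested enzymes and chaperones that modify and fold the chains in the endoplasmic reticulum none passed, and their median was 0.31 (0.17 and 0.35 in the experiments). Ppib, a prolyl isomerase, Serpinh1, the collagen chaperone, and P4hb, a subunit of prolyl hydroxylase, had log2 fold changes of 0.36, 0.07 and 0.31. P3h2, a prolyl hydroxylase, had a log2 fold change of 1.94 and passed with the experiment as a block, with 97.8 and 196.3 in the Cyc pools and -23.0 and 86.2 in the Wt pools. Of 6 tested genes of propeptide removal and crosslinking, 1 was higher, the lysyl oxidase gene Loxl3, with 202.2 and 350.9 in the Cyc pools and 149.1 and 97.7 in the Wt pools (log2 fold change 1.05). Their median was 0.67, with 0.19 in experiment 1 and 1.10 in experiment 2. Pcolce, which speeds up the removal of the C-terminal propeptide, Loxl1 and Pcolce2 were brightest, with 0.75, 0.68 and 0.55, and did not pass.

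Of 8 tested genes of collagen degradation, Ctsk, the collagen-cleaving cathepsin K, was higher, with 288.5 and 351.9 in the Cyc pools and 211.4 and 106.4 in the Wt pools (1.0 on the log2 scale), and 7 did not pass. Ctsb, Timp3 and Timp2 were brightest, with 0.31, -0.30 and 0.19, and the median of this list was 0.39. None of 7 tested collagen receptors passed (median 0.21), and Cd36, Itgb1 and Itga1 had -0.34, 0.44 and -0.08. Of 13 tested genes of TGF-β input and targets, 2 were higher, Ccn2 with a log2 fold change of 1.70 and Ltbp2 with 2.34, and the median was 0.00. Ccn2, a matricellular growth factor, had 6071.5 and 7504.0 in the Cyc pools and 2388.8 and 1776.2 in the Wt pools. The receptor gene Tgfbr2 and the signal mediator Smad4 had 0.00 and -0.13. Of the other fibrillar chains, Col27a1 was tested (log2 fold change 0.58, with -0.31 and 1.46 in the experiments, which did not pass), and Col2a1, Col11a1, Col11a2 and Col24a1 lay under 50 in all pools.

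**Figure D5:**
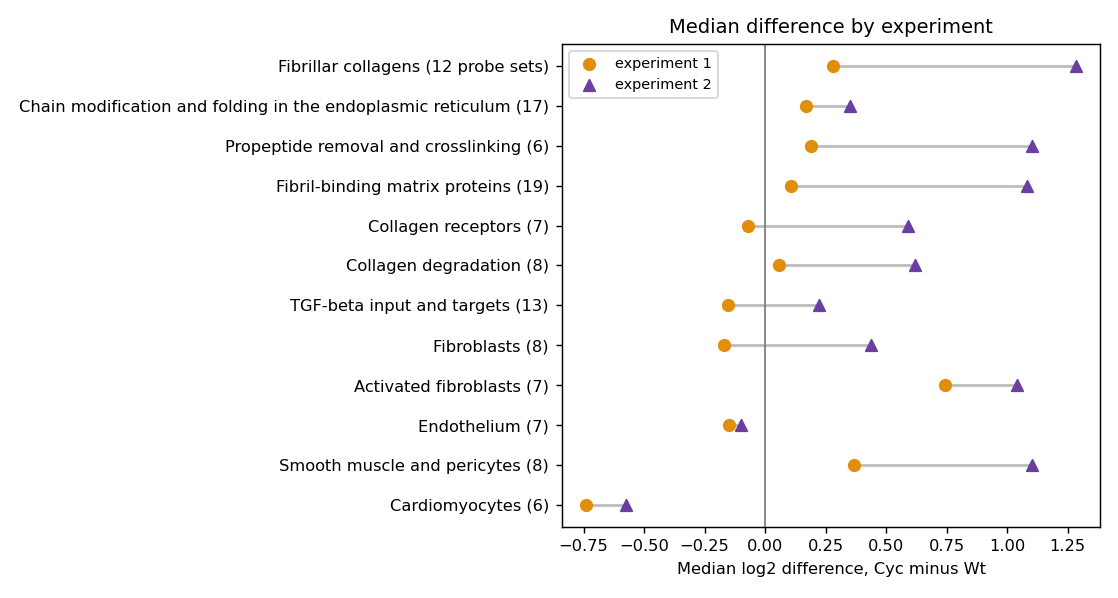
Median Cyc minus Wt difference of log2(intensity + 16) in experiment 1 (orange circles) and experiment 2 (purple triangles) for the 12 fibrillar collagen probe sets, for 6 lists of partner genes and for 5 lists of markers, with the number of tested genes in brackets. The collagens lie at 0.28 and 1.28 and the endothelial markers at -0.15 and -0.10, and the lists of macrophages, valve, tendon and cartilage cells, mesothelium and airway, with medians from 2.05 to 6.79 in experiment 2, are not drawn.

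Markers of the cell types that the sorted fraction could hold were read in the same pools, each at its brightest probe set. In bulk RNA, fewer cells of a type and less RNA per cell cannot be told apart. All 8 fibroblast markers were measured and tested and none passed, with a median log2 fold change of -0.03, -0.17 in experiment 1 and 0.44 in experiment 2. Their summed intensity was 39497 and 37225 in the Cyc pools and 43961 and 29883 in the Wt pools, with none under 50 in all pools. It was lowest in the Wt pool of replicate 2, as most collagen probe sets were, but highest in the Wt pool of replicate 1, above both Cyc pools. Gsn and Dcn made up most of these sums, with 15427 and 13443 in the Wt pool of replicate 1. Their log2 fold changes were -0.11 and -0.01, and those of the other fibroblast markers ran from -0.23 (Pdgfra) to 0.86 (Mfap5). Of 7 markers of activated fibroblasts 3 were higher, Postn, Ltbp2 and Comp, where 0.735% of all tested probe sets were. The lists of partner genes, chosen with earlier results of these data known, also hold these 3, so their count is no independent finding. The other 4, Acta2, Cthrc1, Fap and Tnc, did not pass, with log2 fold changes of 0.49, 0.80, 0.04 and 0.39. The list had sums of 7336 and 13412 in the Cyc pools, against 4477 and 5965 in the Wt pools. Acta2, which the smooth muscle list also holds and which did not pass, made up most of these sums, with 3770 and 7668 in the Cyc pools and 3098 and 4736 in the Wt pools. Of 9 markers of smooth muscle and pericytes, 8 were tested and Abcc9 and Kcnj8 were higher, with sums of 13833 and 26285 in the Cyc pools, against 11433 and 16092 in the Wt pools, while Cnn1 stayed under 50. The part of these cells in the collagen differences was not tested.

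None of 7 endothelial markers passed (median -0.15), with sums of 50383 and 53800 in the Cyc pools, against 54723 and 54345 in the Wt pools. Fabp4 was the largest part of these sums (18275 and 18324 in the Cyc pools, 18266 and 15886 in the Wt pools). In both pools of replicate 2 it was the highest intensity of the array. Of 7 cardiomyocyte markers Mb and Myl2 were lower and Ryr2 stayed under 50, with sums of 1946 and 1339 in the Cyc pools, against 3132 and 1863 in the Wt pools. Macrophage markers (4 of 7 tested, none passed) summed to 451 and 1213 in the Cyc pools and to 469 and 219 in the Wt pools. Of 7 markers of valve, tendon and cartilage cells Fmod was higher and 5 stayed under 50, namely Scx, Tnmd, Chad, Acan and Hapln1. Airway markers (4 of 6 tested, none passed) summed to 274 and 17867 in the Cyc pools and to 3075 and 119 in the Wt pools, and mesothelial markers (6 tested, none passed) to 611 and 2262 in the Cyc pools and to 1245 and 682 in the Wt pools. In both lists the Cyc pool of replicate 2 was highest and the Cyc pool of replicate 1 was below the Wt pool of replicate 1. Lymphocyte markers (5 measured, 1 tested, none passed) stayed at a sum of 314 or less, and the 3 measured Schwann cell markers, none of which could be tested, at 166 or less. The sort marker Sca-1 was not analysed here. Their part in the collagen values was not tested either.

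The 5 genes whose profile over the 4 pools came nearest to the mean profile of Col1a1, Col1a2 and Col3a1 were sought among 17912 probe sets with 1 gene symbol. The measure was the root mean square difference of the log2 values after taking off each probe set's own mean, and the mean profile was 0.21 and 0.55 in the Cyc pools and -0.07 and -0.70 in the Wt pools. Col6a1 and Col6a2, chains of the beaded collagen type VI, and Col27a1, another fibrillar chain, were among them, with 0.05 each. Col6a2 and Col27a1 were here read at their dimmer probe sets. Tmem53, at 0.01, and Pxylp1, at 0.04, were the nearest. In the Wt pool of replicate 2 Tmem53 (31.2) and Col27a1 (28.6) lay under 50, near background. The brighter type V probe set of Col5a1 lay at 0.06 and that of Col5a2 at 0.23, while the probe set of Col5a3 lay at 0.47. The probe sets that made up the mean profile themselves lay at 0.31 (Col1a1), 0.09 (Col1a2) and 0.23 (Col3a1). Likeness over 4 pools describes these arrays only.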

How the data were processed

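Sca-1 cells of 2 Cyc and 2 Wt pools were profiled on Affymetrix mouse whole-genome arrays. The authors normalized the deposited intensity of each probe set with Resolver 7.2 and kept a linear scale. The background correction and summary method are not given in the sources used here. Probe sets were named by the annotation of the platform, which gives 1 symbol for 34945 of 45037 probe sets, several for 932 and none for 9160. The 64 control probe sets were left out of the tests.

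Values below 0 were set to 0, 16 was added and log2 taken. Probe sets with 50 or more on at least 2 of 4 arrays (20680) entered the test by limma 3.58.1 (R 4.3.3), without a block, with 2 residual and 2.68 prior degrees of freedom and with adjustment by Benjamini and Hochberg over all of them. The thresholds were 2-fold and an unadjusted p under 0.05, after the methods of the study, whose Resolver error model was not run. The procedure was checked on simulated data. The deviations of arrays with the same number from the mean of their group correlated with 0.45 and the added control RNAs separate the numbers, so a fit that blocks on the replicate number is also given.

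Named were all 14 probe sets of the 6 genes, in each list the genes past the thresholds and the 3 brightest, and the 5 genes of most similar profile. Genes of the lists stand for their brightest probe set. The 6 genes and the lists were chosen with earlier results of these data known. Alternatives were other pseudocounts (1 and 50), filters (none, or 100), normalizations, an intensity trend, the ratio of arithmetic means, the block, the methods' t-test, averaging the probe sets of each partner gene, and leaving out each array. Motifs were searched in the RefSeq promoter table (GRCm38.p6).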

Additional observations from a re-analysis of the deposited data

Results flagged for a closer look

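At 3 of the 12 tested probe sets the Cyc pool was below the Wt pool in experiment 1 and above it in experiment 2, with 1 pool per genotype in each, and the difference between experiments was not tested. Col1a1 at 1423669_at had -0.29 and 1.35 on the log2 scale, Col1a2 at 1446326_at had -0.55 and 0.73, and Col5a3 at 1419703_at had -0.46 and 0.37.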

How the results depend on the processing

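The same 4 fibrillar collagen probe sets were higher in Cyc cells with pseudocounts of 1 and 50, a filter at 100, quantile normalization, median scaling, an intensity trend, the ratio of arithmetic means and the replicate block (4 higher, 0 lower). Without a filter 3 were higher, where 148 of all 45037 probe sets were. By the methods' t-test, which the study names for other assays, 0 were higher, where 47 of all 20680 tested probe sets were. Leaving out 1 array gave 0 (without the Wt pool of replicate 2) to 7 (without the Cyc pool of replicate 1), and no probe set of the 6 genes was lower under any of these. Of 191 values of single probe sets under all alternatives, 171 kept their direction and side of the thresholds, 11 lost a call, 4 gained one and 5 changed sign. Those were Col1a2 at 1446326_at, with -0.00279 at a pseudocount of 1 and from -0.84 to 1.02 when 1 array was left out, and Col5a3 at 1419703_at, with -0.56 to 0.46 when 1 array was left out.

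Over all tested probe sets, 152 were higher and 24 lower. Higher were 93 with a pseudocount of 50, 47 by the methods' t-test and 117 to 581 when 1 array was left out. Lower were 46 with a pseudocount of 1, 37 without a filter, 47 with the replicate block, 7 by the methods' t-test, 47 by the ratio of arithmetic means and 29 to 1050 when 1 array was left out. Of the partner genes 7 were higher, with 4 without a filter, 4 by the methods' t-test and 5 to 16 when 1 array was left out, and 0 to 2 were lower. Where 1 array was left out, the lone array was assumed to vary like those of the other group. The causes were not tested.

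Normalization together with the block was tried after the data had been seen. With median scaling and the block 54 probe sets were lower, and 120 of 20680 had an adjusted p under 0.05 (limma), among them 3 of the 12, Col1a2 at 1423110_at (0.0359) and Col5a2 at 1422437_at (0.0363) and 1450625_at (0.0192). With quantile normalization and the block 49 were lower and 9 had an adjusted p under 0.05, none of them of these genes. The number of arrays and the small distance to background at 1446326_at, 1416741_at and 1425984_at limit what can be read from these values.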
